A study of Mus musculus with 3 samples.

Results

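The comparison described here sets a culture of induced regulatory T cells (iTreg) against a culture of Th9 cells, both grown from naive CD4 T cells of mouse spleen. Its members are the genes whose spots stood well above background, by the scanner software's own call, in both channels of both arrays. These are 10479 of the 19751 genes matched to probes of the array. A further 428 genes were above background in both cultures but not in both naive channels, and 1164 were above background in 1 culture only. The study used 3 Agilent 2-colour arrays with 60-base probes on 1 slide, 1 array each for Th2, Th9 and iTreg. On each array naive RNA carried Cy3 and culture RNA carried Cy5, with no dye swap.

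All cultures began with naive CD4 T cells, isolated on magnetic columns from spleens of C57BL/6 mice (age 6 to 8 weeks). Culture lasted 3 days on plates coated with antibody to CD3e, with soluble antibody to CD28, each at 10 µg/ml. The Th9 medium added mouse IL-2 at 0.2 ng/ml, mouse IL-4 at 1 ng/ml, human TGF-beta 1 at 2 ng/ml and antibody to interferon gamma at 5 µg/ml. The iTreg medium added mouse IL-2 at 0.4 ng/ml, human TGF-beta 1 at 5 ng/ml, and antibodies to interferon gamma and to IL-4, each at 5 µg/ml. So IL-4 was supplied to 1 culture and neutralised in the other, while the doses of IL-2 and TGF-beta 1 also differed, and the contributions of these differences cannot be told apart. The Th2 array (IL-2 at 1 ng/ml, IL-4 at 5 ng/ml, antibody to interferon gamma at 2 µg/ml, no TGF-beta) is given for context only. Each culture was 1 sample, so the difference between cultures has no replicate check and no p-value was computed, and culture and array position cannot be told apart.

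IL-4 binds its receptor on T cells and activates the transcription factor STAT6, which drives Th2 genes. TGF-beta acts through SMAD proteins: alone with IL-2 it induces Foxp3, the lineage factor of regulatory T cells, and together with IL-4 it induces IL-9 and the Th9 fate. IL-2 acts through STAT5, which is needed for Foxp3 and opposes Bcl6, the lineage factor of follicular helper T cells.

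The start regions of the 3 marker genes are shown here because STAT6 and STAT5 bind spaced pairs of TTC and GAA. Capitals mark TTCNNNNGAA (the spacing typical of STAT6) or TTCNNNGAA (typical of STAT5 and other STATs). Both motifs read the same on the other strand, and no 2 matches overlap in the windows printed. Sequences are from RefSeq, build GRCm38.p6, 250 bases before an annotated start, 5' to 3' on the strand of the gene. Il9, minus strand, is chr13:56482258-56482507. Bcl6, minus strand, is chr16:23981284-23981533. Foxp3, plus strand, is chrX:7580233-7580482.
Il9: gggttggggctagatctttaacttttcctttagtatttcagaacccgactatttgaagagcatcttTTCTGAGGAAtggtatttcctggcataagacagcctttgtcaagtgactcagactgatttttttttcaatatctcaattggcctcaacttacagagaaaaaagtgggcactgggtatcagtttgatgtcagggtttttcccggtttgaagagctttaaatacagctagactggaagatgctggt
Bcl6: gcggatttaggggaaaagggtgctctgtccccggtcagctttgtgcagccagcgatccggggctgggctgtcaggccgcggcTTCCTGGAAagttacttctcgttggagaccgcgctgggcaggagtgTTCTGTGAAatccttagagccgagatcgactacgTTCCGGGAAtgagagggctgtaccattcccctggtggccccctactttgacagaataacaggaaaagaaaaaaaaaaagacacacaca
Foxp3: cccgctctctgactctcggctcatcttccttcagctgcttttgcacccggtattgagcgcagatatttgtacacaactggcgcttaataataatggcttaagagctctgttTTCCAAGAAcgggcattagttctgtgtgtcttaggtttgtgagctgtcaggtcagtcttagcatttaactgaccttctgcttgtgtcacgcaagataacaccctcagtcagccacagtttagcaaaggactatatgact
The Il9 window holds 1 match of the STAT6 type and none of the STAT5 type. The Bcl6 window holds 3 matches of the STAT5 type, and a window at its other listed start holds 1. The Foxp3 window holds 1 match of the STAT5 type, and its other listed start holds none of either type. These genes and windows were picked for print after the matches had been counted.

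Among 8466 measured genes with a listed start, 467 (5.52%) had TTCNNNNGAA in these 250 bases and 622 (7.35%) had TTCNNNGAA. Of 576 such genes that were at least 2-fold higher in iTreg, 38 (6.60%) had TTCNNNNGAA and 56 (9.72%) had TTCNNNGAA. Of 521 that were at least 2-fold lower in iTreg, the counts were 31 (5.95%) and 40 (7.68%). The whole 300-base windows of the table, which also hold the first transcribed bases, were counted first and gave 6.46%, 8.51% and 8.06% for TTCNNNNGAA over all, higher and lower genes, and 8.58%, 11.1% and 8.83% for TTCNNNGAA. The letters are thus found at similar shares in all 3 sets, and a match is a description of the sequence only.

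The arrays were alike in quality. Each array held 43020 gene spots. The scanner software placed 53.0% to 54.1% of them well above background for naive RNA and 48.9% to 51.0% for culture RNA, and it marked none as saturated. Precision is limited by the number of arrays. In what follows, a log2 ratio is a culture over naive on its own array, and a difference is the log2 ratio of iTreg minus that of Th9. An error after ± is the scanner software's error of both spots combined (n = 1 array per culture), with a median of 0.31 for differences of ratios. For a direct Cy5 difference it combines the errors of the Cy5 channels only. Over 187 probes spotted 10 times, the SD of the difference between spots had a median of 0.055. Neither error holds the spread between cultures. The naive channels of both arrays correlated across genes (r = 0.999, genes not being independent replicates), with an SD of 0.12 for their log2 difference.

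In the iTreg culture 713 genes (6.8%) were at least 2-fold higher than in Th9 and 659 (6.29%) were at least 2-fold lower, together 13.1% of the 10479 measured. At least 4-fold, 98 were higher and 61 lower. Of the 1372 genes past 2-fold, 1360 had a 95% interval from their combined error that left out 0. With a median error of 0.31, most genes past 2-fold meet this by their size, so the count adds little to the size rule. The threshold cuts through a continuum: 164 genes lay between 1 and 1.1 and 201 between 0.9 and 1, and on the lower side 141 and 150 genes did. The split depends on the centring of the arrays. With each array centred on its median in place of loess, the median of all measured genes moved from 0.01 to -0.37, and 320 genes were higher and 1765 lower, so that 15.3% of calls were higher against 52.0%. Since most lists below shift with it, many of the larger moves in their counts are given too. Where that centring turns the sign of a median given here, the median relative to all genes is given as well.

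**Figure D1:**
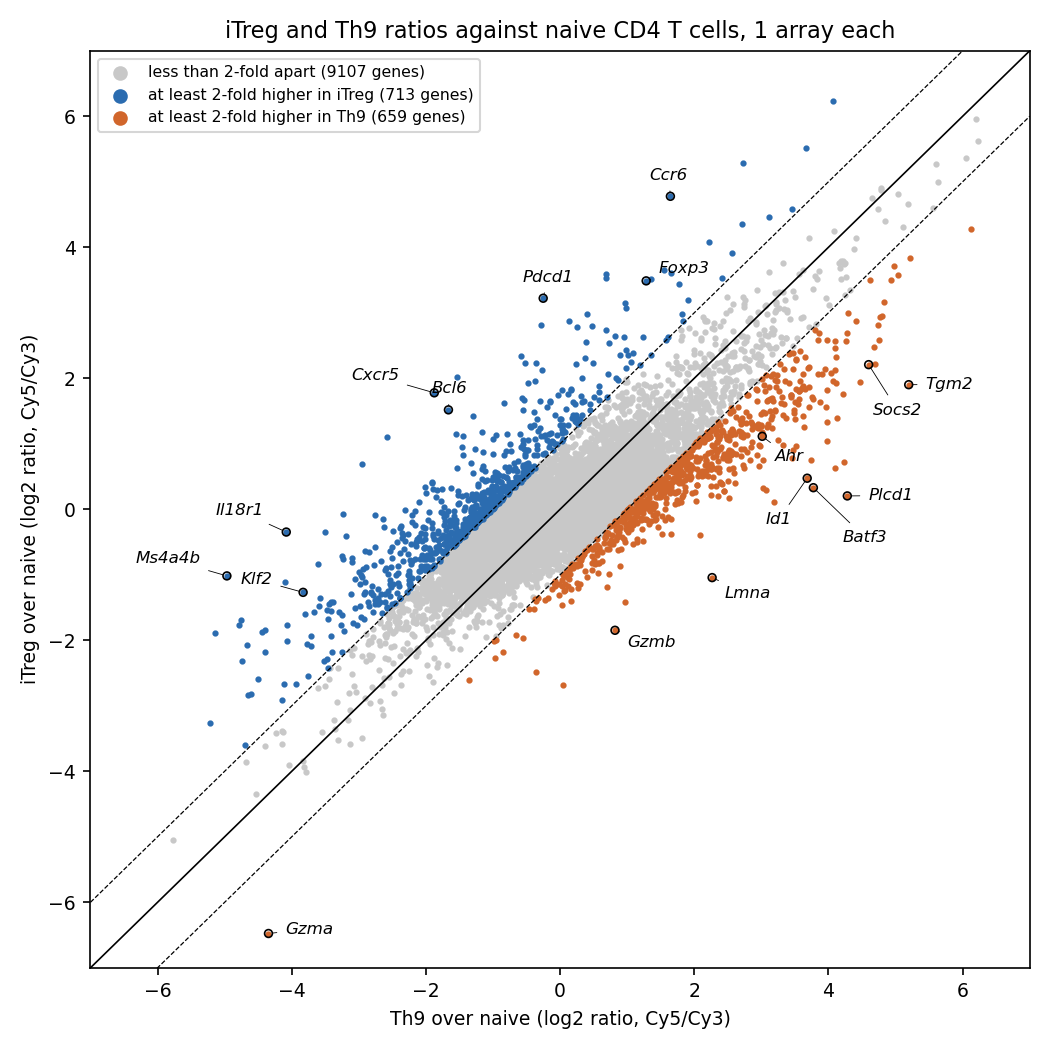
Each point is 1 of 10479 measured genes, with its log2 ratio of Th9 over naive on the x axis and of iTreg over naive on the y axis. The solid line marks equal ratios and the dashed lines a 2-fold difference; 713 genes lie above the upper dashed line (blue) and 659 below the lower (orange), and the cloud is flatter than the solid line, with an SD of 1.19 across genes in Th9 and 0.888 in iTreg.

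The iTreg culture stood closer to naive cells. Of all measured genes, 7054 (67.3%) had a smaller log2 ratio in size in iTreg than in Th9, and of the 1372 genes past 2-fold, 1122 (81.8%) did. Among the 713 genes higher in iTreg, 361 were below naive in both cultures, 268 were above naive in iTreg and below in Th9, and 84 were above naive in both. Among the 659 lower in iTreg, 463 were above naive in both cultures, 174 were below naive in iTreg and above in Th9, and 22 were below naive in both. Of these, 138 of the 713 were at least 2-fold above naive in iTreg, and 44 of the 659 at least 2-fold below. In bulk RNA, fewer cells of a type and less RNA per cell cannot be told apart.

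Only 10 measured genes were at least 2-fold from naive in opposite directions in the 2 cultures. Bcl6, the chemokine receptor gene Cxcr5, the class II gene H2-Eb2, the chemokine gene Ccl4, Smpdl3a, Spin2c, Dtx4, Art4 and Arl5c were above naive in iTreg and below in Th9. Smpdl3a, which encodes a phosphodiesterase, had log2 ratios of -2.59 in Th9 and 1.11 in iTreg. Lmna, which encodes lamin A and C of the nuclear envelope, was the reverse, with log2 ratios of 2.27 in Th9 and -1.04 in iTreg. Its Cy5 spot intensity was 2302 in Th9 and 192 in iTreg, and its ratios differed 9.92-fold.

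Foxp3 had log2 ratios over naive of -0.68 in Th2, 1.28 in Th9 and 3.49 in iTreg. Its Cy5 intensities were 310 in Th2, 1311 in Th9 and 5979 in iTreg, in that order. It was thus above naive in both cultures with TGF-beta, and 4.61-fold higher in iTreg than in Th9 (difference 2.20 ± 0.47). Of 30 regulatory T cell genes listed, 23 were measured, of which 5 were at least 2-fold higher in iTreg and 2 lower, with a median difference of 0.23. With each array centred on its median, 4 were higher and 7 lower, and the median was -0.23, or 0.13 relative to all genes. Of the members outside this measured set, Prdm1 was above background in 1 culture only, and Entpd1, Gpr83, Itgb8, Il10 and Gpr15 were not well above background.

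The other members higher in iTreg were receptors and an Ikaros factor. Tnfrsf1b, which encodes TNF receptor 2, had log2 ratios of -1.10 in Th2, 0.03 in Th9 and 1.83 in iTreg, a difference of 1.80 ± 0.34. Nrp1 (neuropilin 1) had a difference of 1.46 ± 0.42 and Ikzf2, which encodes Helios, of 1.45 ± 0.31, though a further Ikzf2 probe gave 0.78. Il2ra, the alpha chain of the IL-2 receptor, was high in every culture, with log2 ratios of 2.33 in Th2, 2.56 in Th9 and 3.91 in iTreg. Its difference of 1.35 ± 0.55 came to 0.94 with the arrays centred on their medians. The 2 members lower in iTreg were the cytokine signalling inhibitor Socs2 (-2.39 ± 0.64) and the coinhibitory receptor gene Lag3 (-1.07 ± 0.56). Lag3 was at -0.83 in the deposited series values, inside the threshold.

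Of the 23 measured regulatory T cell genes, 16 were within 2-fold between the cultures, and 12 of these were at least 2-fold above naive in both. Ctla4, the coinhibitory receptor that regulatory cells carry, had log2 ratios of 4.18 in Th9 and 3.52 in iTreg. The costimulatory receptor genes Tnfrsf4, Tnfrsf9 and Tnfrsf18 had differences of -0.49, -0.40 and -0.72. By Cy5 alone Tnfrsf9 was at -1.20, past 2-fold, its naive intensities being 818.5 on the Th9 array and 481 on the iTreg array. Nt5e, which encodes the adenosine-producing enzyme CD73, had log2 ratios of -1.22 in Th2, 2.50 in Th9 and 3.24 in iTreg. Its difference was 0.75, or 1.01 by Cy5 alone. Lrrc32, which anchors latent TGF-beta at the cell surface, had a difference of 0.63.

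**Figure D2:**
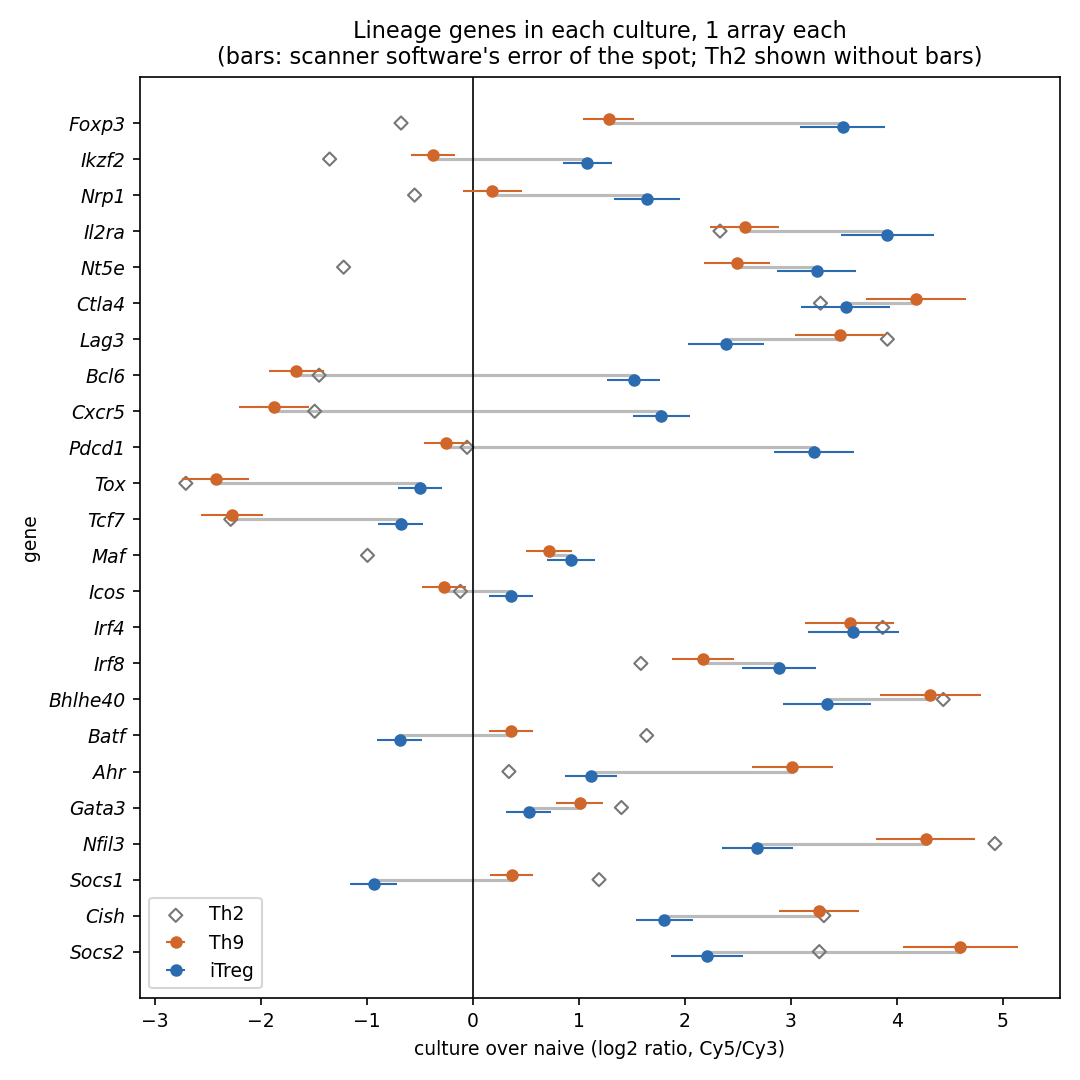
Log2 ratio of culture over naive (x axis) for 24 lineage and signalling genes (y axis), with Th9 in orange, iTreg in blue and Th2 as open diamonds; bars are the scanner software's error of the single spot (n = 1 array). Foxp3 reads 1.28 in Th9 and 3.49 in iTreg, Bcl6 -1.66 and 1.52, and Socs2 4.60 and 2.21.

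Follicular helper genes were higher in iTreg. Of 24 listed, 18 were measured, of which 9 were at least 2-fold higher in iTreg and none lower, with a median difference of 0.99. Bcl6, the transcriptional repressor of this lineage, had log2 ratios of -1.45 in Th2, -1.66 in Th9 and 1.52 in iTreg. Its Cy5 intensities were 1130, 988.5 and 8289 in the same order. It was thus below naive in both cultures with IL-4 and above naive in iTreg only, a 9.07-fold difference from Th9 (3.18 ± 0.36). Bcl6 is also the only member of the IL-4 list that was at least 2-fold higher in iTreg.

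Cxcr5, the receptor that draws T cells to B cell follicles, followed the same order, with Cy5 intensities of 217 in Th2, 160.5 in Th9 and 2428.5 in iTreg. It was 12.6-fold higher in iTreg than in Th9 (3.65 ± 0.43). Pdcd1, which encodes the inhibitory receptor PD-1, had Cy5 intensities of 1025 in Th2, 893.5 in Th9 and 10630.5 in iTreg, an 11.1-fold difference of ratios (3.47 ± 0.43). Its log2 ratio was near 0 in Th2 (-0.05) and Th9 (-0.25) and 3.22 in iTreg.

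The other 6 members past 2-fold were below naive in both cultures and less so in iTreg. They were Pou2af1 (2.35 ± 0.49), a B cell coactivator gene also found in follicular helper cells, Slamf6 (2.18 ± 0.41), Tox (1.92 ± 0.38), Tcf7 (1.59 ± 0.36), Il6st (1.07) and Lef1 (1.03). Further probes gave 0.72 for Slamf6 and 0.66 for Tcf7, and Il6st and Lef1 came to 0.69 and 0.49 with median centring. Icos, Maf and Sh2d1a, which follicular helper cells need, had differences of 0.63, 0.21 and -0.26, with a further Icos probe at -0.11. Btla and Cd200 were each at -0.13. Ascl2, a factor gene of these cells, was above background in Th9 (311) and not in iTreg (88.5), at least 3.12-fold lower. Il21, the cytokine of these cells, was not well above background.

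Il9, the cytokine that names the Th9 lineage, gave the largest bound of the comparison. Its Cy5 intensity was 12172 in Th9, 597.5 in Th2 and 71 in iTreg, where it was not well above background. It was at least 124-fold lower in iTreg than in Th9. Such a bound sets the measured culture against the higher of the dim spot and the lowest signal among probes above background. Of the 1164 genes compared this way, 87 (7.47%) had a bound of at least 2-fold on the side of iTreg and 133 (11.4%) on the side of Th9.

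The factors that act on Il9 stood on both sides of 0. Of 22 Th9 genes listed, 13 were measured, none was at least 2-fold higher in iTreg and 3 were lower, with a median difference of -0.13. The 3 were Ahr, which encodes the aryl hydrocarbon receptor (-1.90 ± 0.45), the AP-1 factor gene Batf (-1.05 ± 0.30) and the cytokine gene Il3 (-1.04). Il3 came to -0.94 by the Cy5 channels alone. Irf4, required for IL-9 production, had log2 ratios of 3.87 in Th2, 3.56 in Th9 and 3.59 in iTreg, a difference of 0.03. Irf8 was higher in iTreg by 0.72 and Bhlhe40 lower by a difference of -0.98, both short of 2-fold by ratios. By Cy5 alone Bhlhe40 was at -1.74 (9884.5 in Th9, 2688.5 in iTreg), past 2-fold. Its naive intensities were 369 on the Th9 array and 217.5 on the iTreg array. Stat5a, Stat5b and Etv5 had differences of -0.23, 0.24 and -0.13. Spi1, which encodes PU.1, and Il9r were not well above background.

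Th2 cytokine genes were low in both cultures beside Th2. Il4 had Cy5 intensities of 6467.2 in Th2, 302.55 in Th9 and 60.3 in iTreg, the last not well above background, so that it was at least 3.57-fold lower in iTreg. Genes above background in both cultures but not in both naive channels were compared by Cy5 alone. Of these 428 genes, 5 (1.17%) were at least 2-fold higher in iTreg and 98 (22.9%) lower. Il5 (689 in Th2, 311 in Th9, 98.5 in iTreg) was among the lower ones with a difference of -1.55, and Il13 (3680, 209.5 and 124) had a difference of -0.72. Of 20 Th2 genes listed, 13 were measured, none was at least 2-fold higher in iTreg and 2 were lower, with a median difference of -0.48. Median centring gave 5 lower.

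The 2 lower after loess were Plcd1, a phospholipase gene, and Nfil3. Plcd1 had the lowest difference of all measured genes, with Cy5 intensities of 4542.5 in Th2, 3141.5 in Th9 and 150.5 in iTreg (16.9-fold lower by ratios, -4.08 ± 0.59). It was high in both cultures with IL-4 and close to naive in iTreg (log2 ratio 0.20). Gata3, the lineage factor of Th2 cells, had log2 ratios of 1.40 in Th2, 1.01 in Th9 and 0.53 in iTreg, a difference of -0.48 that was short of 2-fold. Pparg (-0.77), Ecm1 (-0.51), Ccr4 (-0.55) and Maf (0.21) were also short of it, and Il1rl1, the IL-33 receptor gene, had a difference of 0.05.

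**Figure D3:**
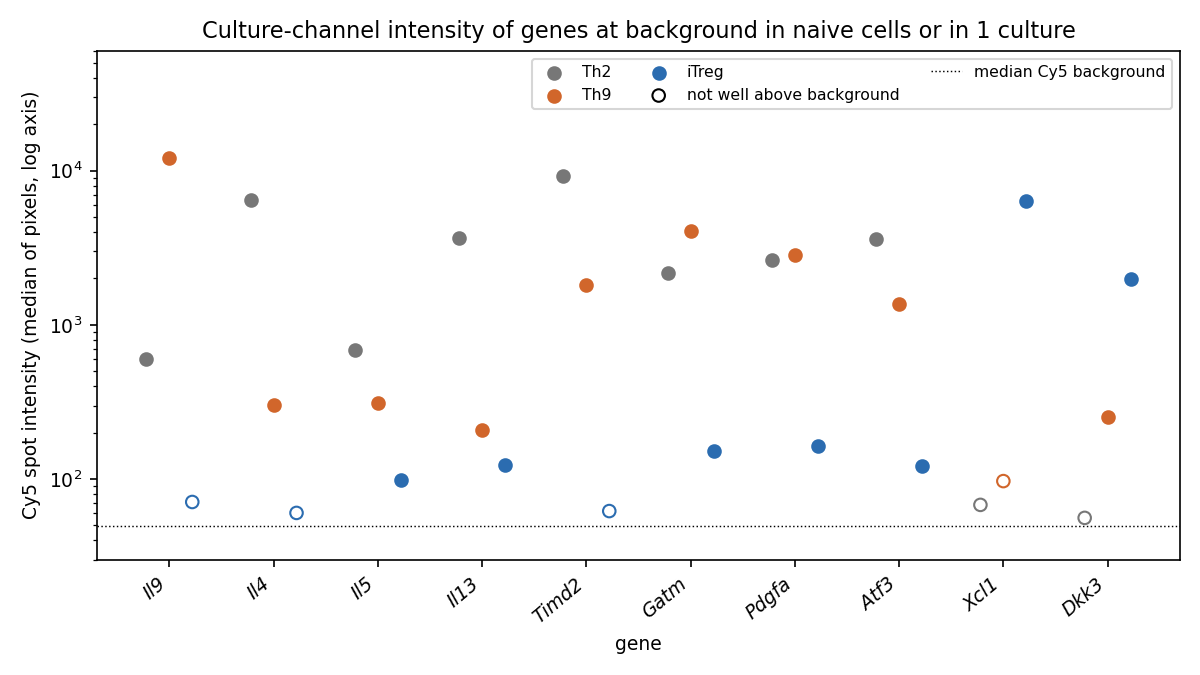
Cy5 spot intensity on a log axis for 10 genes in Th2 (grey), Th9 (orange) and iTreg (blue), 1 array each; open points were not well above background and the dotted line is the median Cy5 background. Il9 reads 12172 in Th9 and 71 in iTreg, and Xcl1 97 in Th9 and 6396 in iTreg.

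Responses to IL-4 and STAT6 were mixed. Of 21 listed genes 14 were measured, of which 1 was at least 2-fold higher in iTreg (Bcl6) and 3 lower, with a median difference of -0.50. Median centring gave 1 higher and 7 lower. The 3 lower after loess are inhibitors or early targets of cytokine receptors: Nfil3 (-1.59 ± 0.58), Cish (-1.46 ± 0.46) and Socs1 (-1.30 ± 0.30). Cish had Cy5 intensities of 40485 in Th2, 39919 in Th9 and 11282.5 in iTreg. Socs1 was above naive in Th2 (1.19) and Th9 (0.37) and below in iTreg (-0.94). The receptor chain gene Il4ra had a difference of -0.04, Stat6 of 0.47 and Gfi1 of 0.18. Arg1, Retnla and Fcer2a, targets of STAT6 in other cell types, were not well above background.

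TGF-beta response genes were split in both directions, although the iTreg medium held more TGF-beta 1. Of 26 listed, 19 were measured, of which 3 were at least 2-fold higher in iTreg and 5 lower, with a median difference of -0.04 (-0.13 relative to all genes with median centring). On the higher side was Rgs16, which regulates G protein signalling, with log2 ratios of 2.68 in Th2, 3.66 in Th9 and 5.51 in iTreg (1.85 ± 0.75). The feedback inhibitor gene Pmepa1 had a difference of 1.33 ± 0.39. The third was Tgfbr2, the type II receptor gene, at 1.57 ± 0.38, but its other probe gave -0.83, and the median over its probes was 0.37. Further inhibitors of the pathway lay inside the threshold on both sides of 0. Smad7 (0.97), Ldlrad4 (0.82), Tgif1 (0.82), Ski (0.41 ± 0.41) and Skil (0.41, with a further probe at -0.35) had positive differences. Smurf1 (-0.58) and Smurf2 (-0.39) had negative ones, as did Smad6 by Cy5 (-0.31).

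On the lower side stood Id1 and Id2, which encode inhibitors of E proteins. Id1 had Cy5 intensities of 1025 in Th2, 2029 in Th9 and 197.5 in iTreg (-3.21 ± 0.56). Its log2 ratio to naive in iTreg was 0.47. Id2 had a difference of -1.30 and Id3, of the same family, of 0.58. Gadd45b (-2.09 ± 0.41), Tgfb3 (-1.35) and the coreceptor gene Tgfbr3 (-1.32) were the others. Smad3 (-0.08), Tgfb1 (-0.04) and Tgfbr1 (-0.27) differed little.

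IL-2 and STAT5 target genes were lower in iTreg, although its medium held more IL-2. Of 24 listed, 21 were measured, of which 1 was at least 2-fold higher in iTreg (Il2ra) and 11 lower, with a median difference of -1.04. Median centring gave none higher and 14 lower. The lowest were Gzmb, which encodes granzyme B (-2.67 ± 0.37), Socs2 (-2.39), Lta, the lymphotoxin alpha gene (-2.30 ± 0.41), and Nfil3. Gzmb had log2 ratios of 2.36 in Th2, 0.82 in Th9 and -1.85 in iTreg. Il2rb (0.21) and Myc (0.15) were near the median of all genes. Of 11 SOCS and PIM genes, all measured, 6 were lower in iTreg and none higher (median -1.28): Socs2, Pim2 (-1.55 ± 0.36), Cish, Pim3 (-1.39), Socs1 and Pim1 (-1.28). The PIM genes encode survival kinases that STAT proteins induce. Socs5 (0.77), Socs6 (0.09), Socs4 (-0.31) and Socs7 (-0.59) were not past 2-fold, and neither was Socs3 (-0.50).

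Genes of other lineages were also unequal. Ccr6, a chemokine receptor of Th17 and regulatory cells, had Cy5 intensities of 124 in Th2, 2371 in Th9 and 25649 in iTreg (3.13 ± 0.58), so it was below naive in Th2 and above in both TGF-beta cultures. Of 18 Th17 genes listed 11 were measured, of which 2 were higher in iTreg and 3 lower (median -0.45), or 2 and 5 with median centring. The 3 were Batf3 (-3.45 ± 0.59), Ahr and the receptor chain gene Il12rb1 (-1.71). Batf3 also differed between the naive channels, which read 334 on the Th9 array and 79 on the iTreg array, and its Cy5 intensity was 5919 in Th9 and 124 in iTreg, a direct difference of -5.27. By Cy5, Il17a was at a difference of -0.16, and Il17f was not well above background.

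Of 17 Th1 genes 13 were measured, of which 6 were higher in iTreg and 2 lower (median 0.76). With median centring 3 were higher and 3 lower, and the median was 0.19. Il18r1, the IL-18 receptor gene, had log2 ratios of -4.23 in Th2, -4.08 in Th9 and -0.35 in iTreg, a 13.3-fold difference from Th9 (3.73 ± 0.57). The chemokine gene Ccl4 (2.34 ± 0.34), the receptor gene Cxcr3 (2.21 ± 0.55), Ifngr1 (1.39), Stat4 (1.07) and Ccl3 (1.05) were the other 5. Tbx21, the lineage factor of Th1 cells, and Ifng had differences of -0.39 and -0.01, and were below naive in all cultures. Of 13 aryl hydrocarbon receptor genes, 5 were measured, of which 1 was higher in iTreg and 2 lower, Ahr and Tiparp (-1.42 ± 0.31). With median centring none was higher. Cyp1a1, the classic target of this receptor, was lower by Cy5 (412 in Th9, 149 in iTreg, -1.46).

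**Figure D4:**
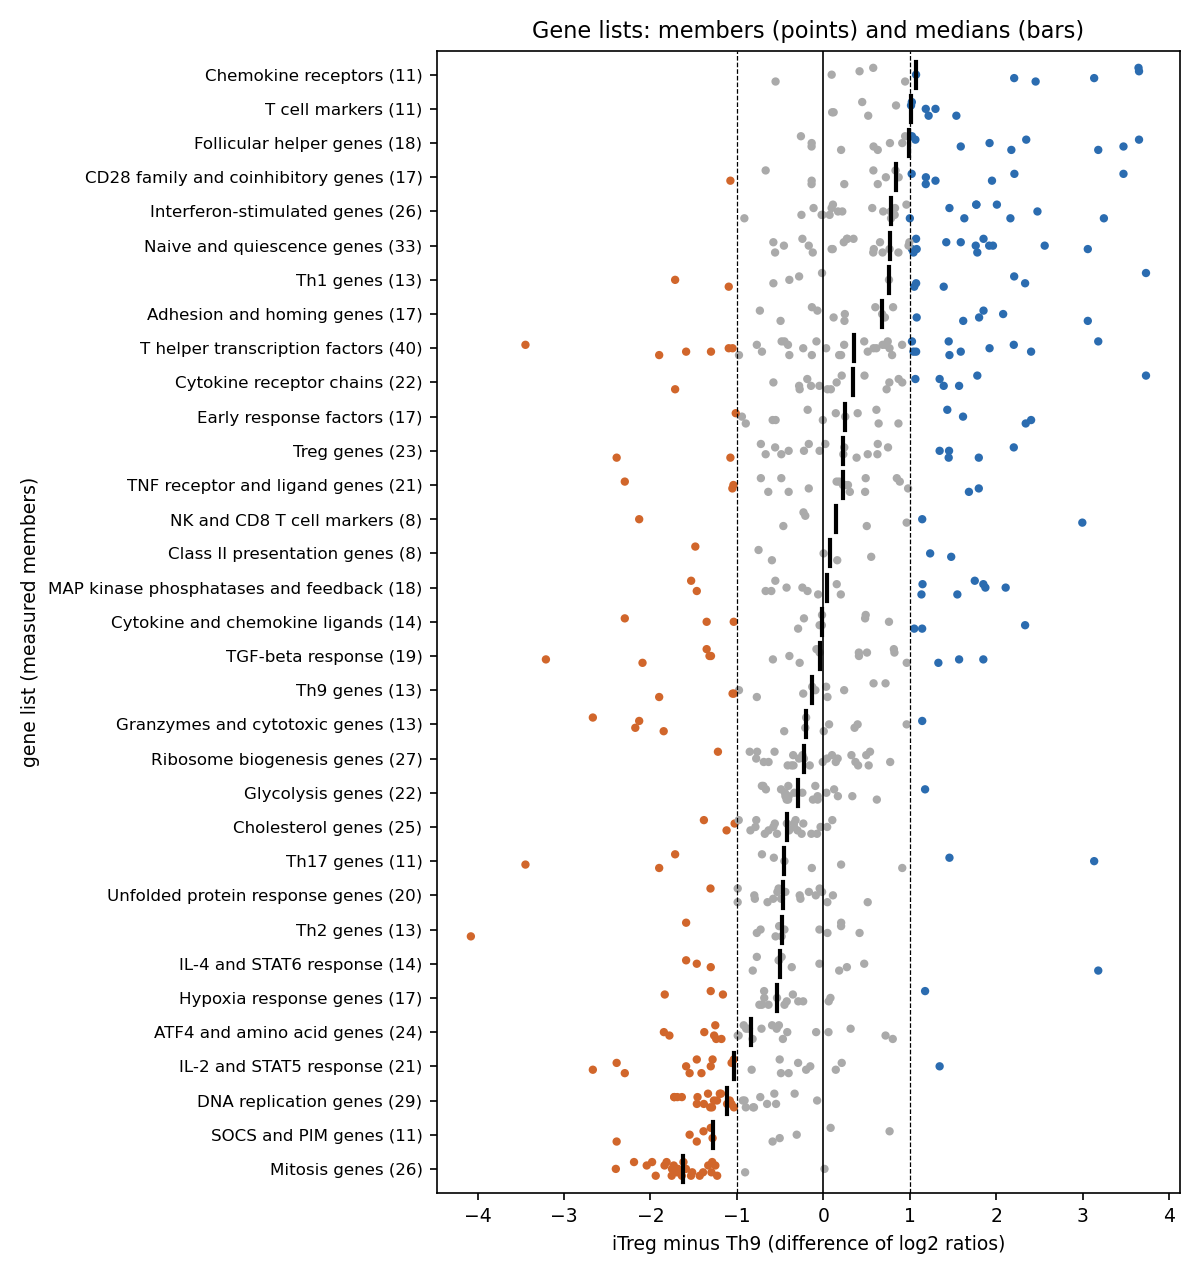
Difference of log2 ratios, iTreg minus Th9 (x axis), for the measured members (points) of each gene list with at least 8 measured members (y axis, with their number); black bars are medians and dashed lines mark 2-fold. Medians run from -1.63 for mitosis genes to 1.07 for chemokine receptors, beside 0.01 for all genes.

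The 20 highest differences included several surface receptor genes. Ms4a4b led, with Cy5 intensities of 5686.5 in Th9 and 63278.5 in iTreg (15.4-fold by ratios, 3.95 ± 0.56), and was at 5380 in Th2. After it and genes given above came Cxcr6, a homing receptor gene (3.65 ± 0.44), H2-Eb2 (3.56), the interferon-stimulated gene Samd9l (3.25), Nod1, an intracellular sensor of bacteria (3.17), the lysophosphatidic acid receptor gene Lpar6 (3.16) and Plxdc2 (3.10). Mndal of the interferon-inducible p200 family (3.02), the NK receptor gene Klrd1 (3.00), Lcn6 (2.91) and Ramp1 (2.91, other probe 1.70) were also among the 20. So were Grb7 (2.85) and Trim34a (2.79). Of the genes from Cxcr6 on, H2-Eb2, Plxdc2, Lcn6, Ramp1 and Grb7 were over 4-fold above naive in iTreg, with log2 ratios of 2.02, 2.82, 3.59, 2.33 and 3.52, and had log2 ratios below 1 in Th9 and Th2.

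A smaller set was above background in iTreg and at or near it in Th9. Xcl1, a chemokine gene of T and NK cells, had Cy5 intensities of 68 in Th2 and 97 in Th9, neither well above background, and 6396 in iTreg, at least 56.7-fold higher than in Th9. Lcn10, a lipocalin gene like Lcn6, was at least 6.80-fold higher and Pcdhb7 at least 6.16-fold. Gucy1a1, Ceacam2, Ifi209, Tmc7, Iglon5, Matn2 and Fam20a had bounds between at least 3.63-fold and 5.30-fold. Ifi209 was bright in naive RNA (5213 on the Th9 array, 5050 on the iTreg array) and below naive in iTreg (log2 ratio -3.78). Gucy1a1, Ceacam2, Matn2 and Fam20a were also well above background in naive RNA. By Cy5 alone Dkk3, a secreted relative of Wnt inhibitors, had intensities of 253 in Th9 and 1983.5 in iTreg (2.80 ± 0.21), and it was not well above background in Th2. Wdpcp (1.71), Tmem121 (1.26) and Pla2g4f (1.26) were also past 2-fold.

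Most of the 20 genes with the lowest differences were high in both cultures with IL-4. After Plcd1 came Lama5, a laminin gene (-3.51 ± 0.59), Fcmr, the IgM Fc receptor gene (-3.46), Batf3, Lmna and Tgm2, transglutaminase 2 (-3.29, other probe -2.59). Tgm2 had Cy5 intensities of 25170 in Th2, 12162.5 in Th9 and 706 in iTreg. Id1, the complement gene C3 (-3.07, other probe -4.21), Sgo2a, a guardian of centromere cohesion (-2.99), Zfp296 (-2.94), Maged1 (-2.77), Prr11 (-2.74), Gem (-2.69, other probe -1.78), Odf2 (-2.67, other probe -0.78), Gzmb, Nek6 (-2.64), Pros1 (-2.57), Acvr2b (-2.55) and Cd83 (-2.52) followed. All but 1 of the 20 were above naive in Th2 as in Th9. The exception was Sgk1, a kinase gene, with log2 ratios of -3.32 in Th2, 0.04 in Th9 and -2.68 in iTreg (-2.72 ± 0.39), so that the Th9 culture stood apart from the other 2.

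By Cy5, Gatm, an enzyme gene of creatine synthesis, had intensities of 2157 in Th2, 4057 in Th9 and 152.5 in iTreg, a 23.2-fold difference after scaling (-4.54 ± 0.24). The growth factor gene Pdgfa (-3.94 ± 0.23), the stress factor gene Atf3 (-3.26), Rai14 (-2.90), Anxa3 (-2.87), Arhgef25 (-2.80), Mpzl2 (-2.75), the Notch target Hey1 (-2.66) and Dpf1 (-2.64) were also among the lowest. Timd2, which encodes a ferritin receptor, was 9222.5 in Th2 and 1806.5 in Th9 and not well above background in iTreg (62), at least 19.8-fold lower. Cpne6, Kdelr3, Enah, Wtip, Timp1, Sema3b, Uaca and Emilin2 had bounds between at least 5.56-fold and 9.88-fold.

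Genes of the naive and quiescent state were higher in iTreg or within 2-fold. All 33 listed were measured, of which 13 were at least 2-fold higher and none lower, with a median difference of 0.77. With median centring 9 were higher, 3 lower, and the median was 0.25. Klf2, a factor that keeps T cells quiescent and S1pr1 on, had log2 ratios of -4.91 in Th2, -3.83 in Th9 and -1.27 in iTreg (2.56 ± 0.47). Slfn2 (log2 ratios -3.38 in Th9, -1.41 in iTreg) and Btg1 (difference 1.92, other probe 1.19), both tied to quiescence, were also among the highest. The median log2 ratio of the list was -1.72 in Th9 and -0.74 in iTreg, and 27 of the 33 were below naive in both cultures. The lowest differences were those of Rasgrp2 (-0.58), Klf7 (-0.56), Cdkn2d (-0.46) and Klf6 (-0.24).

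Surface and homing genes shared the direction. Of 18 chemokine receptor genes 11 were measured, of which 6 were higher in iTreg and none lower (median 1.07), led by Cxcr6, Cxcr5 and Ccr6. Cx3cr1, the fractalkine receptor gene, had Cy5 intensities of 69 in Th2, 235.5 in Th9 and 1328 in iTreg (2.46 ± 0.36). Ccr4 (-0.55), Cxcr4 (0.10), Ccr8 (0.42) and Ccr9 (0.58), the lowest 4, were not past 2-fold. Of 22 adhesion and homing genes 17 were measured, 6 higher and none lower (median 0.68), with Emb (2.08), the sphingosine receptor gene S1pr1 (1.85) and Cd9 (1.80) among the highest and Icam1 (-0.73), Cd44 (-0.49, other probe 0.74), Itgb1 (-0.13) and Itgav (-0.07) at the bottom.

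Coinhibitory receptor genes were unequal among themselves. Of 20 CD28 family and coinhibitory genes 17 were measured, of which 7 were higher in iTreg and 1, Lag3, was lower (median 0.84). Median centring left 3 higher and 2 lower. Pdcd1 led, followed by Cd96 (2.21 ± 0.35), Vsir, which encodes VISTA (1.95 ± 0.37), and Cd5 (1.30). Ctla4 (-0.67), Btla (-0.13) and Cd200 (-0.13) were at the other end with Lag3.

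T cell markers shifted the same way. All 11 were measured, and 6 were at least 2-fold higher in iTreg with none lower (median 1.02). They were Trat1 (1.54), Cd5, Cd3g (1.22), Cd28 (1.19), Cd3d (1.02) and Cd3e (1.02). Cd4 (0.12) and Cd247 (0.10), the zeta chain gene, differed little, and Cd4 had log2 ratios of -0.47 in Th9 and -0.35 in iTreg. With median centring only Trat1 stayed past 2-fold, and the median of the list was 0.23. The part of this shift in the results above was not tested.

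Some markers of other cells were at background and others were bright. Cd79a, Ms4a1 and Pax5 of B cells, Lyz2 and Cd14 of myeloid cells, and Cd8a, Klrb1c, Klrk1 and Ncr1 of CD8 T and NK cells were not well above background in the cultures. The 2 measured B cell markers were Cd79b and Cd22, neither past 2-fold (-0.20 and 0.84). Cd79b had Cy5 intensities of 2481 in Th9 and 2069.5 in iTreg and was above naive in both (log2 ratios 2.03 and 1.83). Of 6 measured myeloid markers, 2 were higher in iTreg, Cd300a (1.08) and Itgam (1.04), and none with median centring. Itgam had Cy5 intensities of 9758 in Th9 and 19419 in iTreg (log2 ratios -1.18 and -0.14). Tyrobp (-0.21) and Fcer1g (-0.55) were far below naive in both cultures. Of 8 measured NK and CD8 markers, Klrd1 and Nkg7 (1.14) were higher in iTreg and Gzma lower (-2.13 ± 0.81), or 1 and 1 with median centring. Cy5 intensities in Th9 and iTreg were 2342 and 4710 for Nkg7 and 4343 and 697 for Gzma. Inside the threshold, they were 4661 and 8864.5 for Ctsw (0.96) and 256.5 and 333 for Cd8b1 (0.50). Klrd1 had Cy5 intensities of 206 in Th9 and 1827 in iTreg, both below its naive level (log2 ratios -4.11 and -1.11). The part of other cell types in these values was not tested.

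Cell division genes were lower in iTreg. Of 30 mitosis genes 26 were measured, of which 24 were at least 2-fold lower and none higher, with a median difference of -1.63. All but Pttg1 were above naive in both cultures, and the median log2 ratios were 3.19 in Th2, 3.35 in Th9 and 1.82 in iTreg. Bub1, a spindle checkpoint kinase gene, had Cy5 intensities of 1512 in Th2, 2090 in Th9 and 393.5 in iTreg (-2.40 ± 0.62). Tpx2 (-2.19), the topoisomerase gene Top2a (-2.04 ± 0.50) and Nusap1 (-1.98) came next, and Pttg1 (0.01) and Cenpa (-0.90) were the 2 measured members inside the threshold. Of 30 DNA replication genes 29 were measured and all 29 had a negative difference, 18 of them past 2-fold (median -1.11). With median centring 26 were past it. Uhrf1 (-1.72), Pold1, the polymerase delta gene (-1.72), Gins2 (-1.69) and Chaf1a (-1.64) were lowest, and Tyms (-0.07) was nearest to 0. The number of divisions in either culture was not measured.

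**Figure D5:**
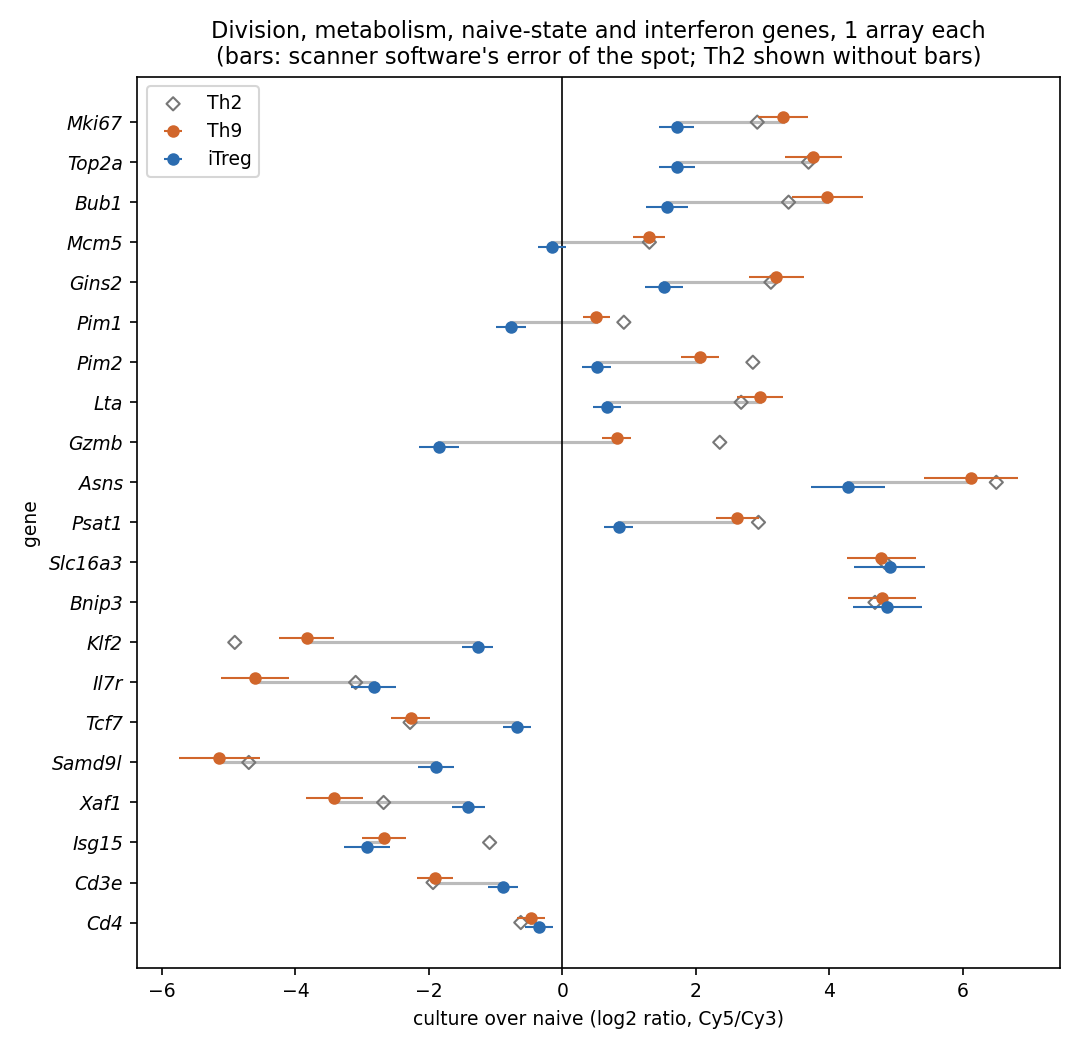
Log2 ratio of culture over naive (x axis) for 21 genes of division, STAT5 response, metabolism, the naive state, interferon and T cell identity (y axis), drawn as in the plot of lineage genes. Bub1 reads 3.97 in Th9 and 1.57 in iTreg, Klf2 -3.83 and -1.27, and Slc16a3 4.78 and 4.91.

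Most metabolic genes of the next 3 lists were within 2-fold, as were most of all measured genes, of which 13.1% were past it. Of 22 glycolysis genes, all measured, 1 was higher in iTreg (Pdk1, 1.18, which restrains pyruvate entry into mitochondria) and none lower (median -0.29). The lactate exporter gene Slc16a3 had log2 ratios of 4.78 in Th9 and 4.91 in iTreg. With median centring 8 glycolysis genes were lower and none higher, and the median was -0.54 relative to all genes. Of 27 cholesterol synthesis genes 25 were measured, 3 of them lower in iTreg (median -0.42), Lss (-1.38 ± 0.41) and Scd2 (-1.12) among them. Median centring gave 10 lower and a median of -0.53 relative to all genes. Of 19 hypoxia response genes 17 were measured, with Pdk1 higher and Ero1a (-1.83), Car12 (-1.30) and P4ha2 (-1.16) lower (median -0.53). With median centring 8 were lower and Pdk1 was inside the threshold, and the median was -0.62 relative to all genes. The medians of these 3 lists were thus alike under that centring.

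Amino acid and stress genes of the ATF4 programme were lower in iTreg or within 2-fold. Of 30 listed 24 were measured, 7 of them lower and none higher (median -0.84), and median centring gave 15 lower. Asns, asparagine synthetase, had log2 ratios of 6.50 in Th2, 6.13 in Th9 and 4.28 in iTreg (-1.84 ± 0.89). The serine synthesis gene Psat1 had 2.94, 2.62 and 0.84 (-1.78 ± 0.39). Ddit4 (-1.38) and Aldh18a1 (-1.26) were the next lowest, while the transporter genes Slc1a4 (0.80) and Slc1a5 (0.72), Wars (0.32) and Trib3 (0.06) were the highest. Of 20 measured unfolded protein response genes 1 was lower, Hsp90b1 (-1.30), and of 27 measured ribosome biogenesis genes 1 was lower, Polr1c (-1.22), with medians of -0.46 and -0.22. Median centring gave 10 lower unfolded protein response genes and 7 lower ribosome genes.

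Most interferon-stimulated genes were below naive in both cultures. Of 34 listed 26 were measured, and 24 of these were below naive in both. Against Th9, 9 were at least 2-fold higher in iTreg and none lower (median 0.78). Samd9l had log2 ratios of -4.70 in Th2, -5.14 in Th9 and -1.89 in iTreg (3.25 ± 0.66). Trim30a (2.48 ± 0.46), Ifi27l2a (2.17), which was above naive in iTreg (0.62), and Xaf1 (2.01) came next. Ifi27l2a came to 1.36 by Cy5 alone, its naive intensities being 74224 on the Th9 array and 48170 on the iTreg array. Bst2 (-0.91), Isg15 (-0.25), Oasl1 (-0.11) and Stat2 (-0.02) were lowest, so members stood on both sides of 0. Of 8 measured class II presentation genes, Ctss (1.48) and H2-Ob (1.24) were higher and H2-DMb1 lower (-1.48), with a median of 0.08. Median centring gave none higher and 3 lower, with a median of -0.05 relative to all genes. H2-Eb2, with a difference of 3.56, was not on this list.

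Early response factors and feedback genes were split. Egr2 and Egr1, early growth response factors, had differences of 2.40 ± 0.36 and 2.34 ± 0.35. Egr2 had Cy5 intensities of 3066 in Th2, 1239 in Th9 and 6140 in iTreg. Jund (1.62) and Nfatc1 (1.44) were also higher among 17 measured early response factors, and Nfkbia was lower (-1.01). The median was 0.25 (0.24 relative to all genes with median centring). Egr2 and Egr1 were above naive in iTreg (log2 ratios 2.13 and 1.97) and not in Th9 (-0.28 and -0.38). Jund and Nfatc1 were below naive in both cultures, with log2 ratios of -1.91 and -2.01 in Th9 and -0.29 and -0.58 in iTreg. Of 18 measured MAP kinase phosphatases and feedback genes 7 were higher in iTreg and 2 lower: Spry1 (2.11 ± 0.50), Rgs10 (1.88), Rgs16 and Rgs2 (1.75) led, while Dusp14 (-1.53) and Cish were lower. Median centring gave 4 higher and 4 lower for this list, and 4 and 4 for the early response factors. Dusp4 was among the highest of all genes over naive in both cultures, with log2 ratios of 6.22 in Th9 and 5.62 in iTreg.

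Ligand, receptor and granule genes completed the lists. Of 14 measured cytokine and chemokine genes 3 were higher in iTreg (Ccl4, Il16 at 1.14 and Ccl3) and 3 lower (Lta, Tgfb3 and Il3). Of 22 measured cytokine receptor chains 6 were higher, led by Il18r1, Il7r (1.78 ± 0.61), Tgfbr2 and Ifngr1, and Il12rb1 was lower. Of 21 measured TNF family genes 2 were higher, Tnfrsf1b and Cd27 (1.69), and 3 lower, Lta, Tnfrsf10b (-1.05) and Tnfrsf12a (-1.04). Of 13 measured granzymes and cytotoxic genes, Nkg7 was higher, and Gzmb, Ctla2b (-2.17 ± 0.60), Gzma and Ctla2a (-1.85) were lower. Median centring gave 1 higher and 3 lower for ligands, 3 and 2 for receptor chains, 2 and 6 for the TNF family, and 4 lower and none higher for cytotoxic genes.

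Over 40 measured T helper transcription factors, 10 were at least 2-fold higher in iTreg and 6 lower, with a median of 0.36 (0.27 relative to all genes with median centring, which gave 7 higher and 9 lower). The highest were Bcl6, Egr2, Foxp3 and Tox, and the lowest Batf3, Ahr, Nfil3 and Id2. Between these ends lay most lineage factors with no 2-fold difference, Gata3, Tbx21, Irf4 and Maf among them.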

How the data were processed

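Gene expression of naive, Th2, Th9 and iTreg cells was read from 3 scanner files, 1 per array. Per the file headers, these deposited files give the median intensity of each spot and of its background in both channels, as written by Agilent Feature Extraction, version 11.0.1.1, while version 9.3.2.1 stands in the submitters' processing notes. They also hold intensity values processed by the scanner software with their errors, and a log10 ratio with its log10 error, per the file headers. The ± values were taken from the latter for differences of ratios and from the errors of the Cy5 intensities for direct Cy5 differences. The deposited series values were found to be the log2 ratio of those processed intensities plus a constant, which was 0.056 on the Th2 array, 0.021 on the Th9 array and 0.037 on the iTreg array, within 0.001 for over 99.96% of probes with a single spot.

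Median intensities were background-corrected (normexp, offset 50) and a within-array loess was applied to the log2 ratios in R 4.3.3 with limma 3.58.1 and data.table, release 1.17.8. Cy5 values for the direct comparison were scaled by Aquantile over the 3 arrays. Control spots and spots marked as outliers did not enter the loess fit, and the latter were removed. Of 39429 probes, 26055 (66.1%) matched a gene by RefSeq accession, giving 19751 genes. The brightest probe stood for a gene. Of 2441 measured genes with several measured probes, 290 were past 2-fold, and in 257 of these all probes were on the same side of 0. Probes of close families were not tested for cross-hybridisation. Later steps used Python 3.11.15, numpy 2.4.6, pandas 2.3.3 and matplotlib 3.10.9. The size rule was tested on arrays simulated from a naive channel, with little noise and known changes in some bright probes. Those arrays held no broad culture response and no spread between cultures, so they cannot show how far the counts hold.

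With 1 array per culture there was no test: a gene was called by size, a log2 difference of at least 1. The comparison, its markers and the 36 gene lists were chosen with earlier results of these data known. Named genes are Foxp3, Il9 and Bcl6, all members of 6 lists (Treg, Th9, Th2, IL-4 and STAT6, TGF-beta, follicular helper), the 20 highest and 20 lowest differences, the 10 highest and lowest by Cy5, the 10 largest bounds each way, and the 4 highest and 4 lowest members of every other list. A few genes that this rule names are not reported here. Names outside the rule were chosen after their values were seen. Among them are Smpdl3a's companions at opposite sides of naive (Spin2c, Dtx4, Art4, Arl5c), further members given to complete a list's count, and single genes in the plots and the closing section. Alternatives were median centring, processed and deposited values, Cy5 alone, another offset, no filter on dim spots, the median over probes, and stricter size rules.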

Additional observations from a re-analysis of the deposited data

How the results depend on the processing

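No paired analysis was possible because each culture has 1 array and all 3 share the number 1. Counts of genes at least 2-fold higher and lower in iTreg were 713 and 659. They were 320 and 1765 with median centring, and all 320 and all 659 were shared with the first sets. With the deposited series values they were 1075 (711 shared) and 816, and at 3-fold 206 and 183. Under the other alternatives (processed signals, Cy5 alone, an offset of 10, no filter, the median over probes, the error rule) counts stayed within 1.5 times, from 649 to 1046 higher and from 650 to 844 lower. An alternative chosen after seeing the data, centring each array on its measured genes, gave 701 and 777, with 617 and 581 shared.

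Medians of the 6 named lists that moved by more than the spot error (0.055) are these. With median centring, which also moved the median of all genes to -0.37, they were -0.23 for Treg, -0.78 for Th9, -0.89 for Th2, -0.97 for IL-4 and STAT6, -0.49 for TGF-beta and 0.57 for follicular helper genes. With processed signals they were 0.33 for Treg, -0.41 for Th2 and 1.12 for follicular helper genes. With the deposited values they were 0.35 for Treg, -0.39 for Th2, 0.017 for TGF-beta and 1.14 for follicular helper genes. By Cy5 alone they were 0.11 for Treg, -0.40 for IL-4 and STAT6 and 1.08 for follicular helper genes. An offset of 10 gave 1.07 for follicular helper genes. Without the filter, which brought dim members in, they were 0.11 over 29 Treg, -0.046 over 21 IL-4 and STAT6 and 0.70 over 24 follicular helper genes. Centring on the measured genes gave 0.13 for Treg, -0.42 for Th9, -0.61 for IL-4 and STAT6 and -0.13 for TGF-beta. The cause of these shifts was not tested.

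Of 140 named genes past 2-fold, 124 stayed past it with median centring, 133 with centring on the measured genes, and from 137 to 140 under the other 6 settings. None changed sign under any of these 8 settings, but this count adds little. The genes were taken at a log2 difference of at least 1 in size, and every setting reprocessed the same arrays. The median of all genes moved furthest with median centring, from 0.01 to -0.37. Signal over background limits the 428 and 1164 genes given by Cy5 or as a bound.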

Other observations

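Both arrays carried naive RNA in Cy3, and the labels do not say whether it was 1 extract. Between these naive channels 7 measured genes differed at least 2-fold, and they were picked out after their values were seen. Each differed in the direction of its culture channel. The naive intensity of Mt1, a metallothionein gene, was 2147 on the Th9 array and 647 on the iTreg array, while its Cy5 intensity was 87351 and 14627. Its difference was -0.26 by ratios and -2.17 by Cy5 alone. The same held for Batf3, for the kinase gene Fes (naive 1104 and 351, Cy5 8880 and 685), for Sh2b2 (naive 214 and 88, Cy5 2255 and 311) and for Tubb6 (naive 419.5 and 204, Cy5 29991 and 9819). In the other direction, Apol9b had naive intensities of 452 and 1105 beside Cy5 intensities of 1294 and 8671, and Apol9a 651 and 1383 beside 1588 and 9552. For these genes the difference of ratios was smaller in size than the direct Cy5 difference, for Fes -1.75 against -3.43 and for Apol9b 1.40 against 2.75. Over all genes past 2-fold the naive channels differed little, with median log2 differences of 0.009 for those higher in iTreg and -0.034 for those lower.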
